A study of Mus musculus with 6 samples.

Results

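The genes described here build and shape mitotic chromosomes: the 8 subunits of the condensin complexes (Smc2, Smc4, Ncapd2, Ncapg, Ncaph, Ncapd3, Ncapg2 and Ncaph2), topoisomerase II alpha (Top2a) and the chromosome surface protein Ki-67 (Mki67). They were taken by gene name from the annotation of the arrays, which held 22 probes for all 10 genes among 41174 probes. Of these, 21 probes lay well above background on all 6 arrays and 1, a probe to a Top2a clone, on 0 of them, so that all 10 genes entered the test of 16389 genes.

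RNA came from sorted liver CD8+ T cells of C57BL/6 females aged 13 to 14 weeks. TGC3 mice had the transgene dnTGFβRII, which encodes a dominant negative form of TGF-beta receptor II, and lacked the chemokine receptor CXCR3 (CXCR3-/-). The TG mice carried the same transgene with Cxcr3 intact, so that no group was without the transgene. Each group had 3 samples, read on 1 one-colour array each and named here TGC3 1 to TGC3 3 and TG 1 to TG 3. The labels name neither the promoter of the transgene nor the number of mice behind a sample, and the p-values reflect spread among these samples, some of which may be technical. The study asked what CXCR3 does in the activation and proliferation of these cells.

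Levels are given as scaled log2 values, the log2 of the processed signal with each array's 75th percentile set to 0. Cxcr3 had scaled log2 values of -4.64, -4.21 and -4.53 in TGC3 cells, against 6.94, 6.85 and 6.89 in TG cells. Of 9 listed CD8 T cell markers, 8 were on the array by name and were measured on all 6 arrays, while of 5 CD4 T cell markers Cd4, Ctla4 and Zbtb7b lay well above background on all 6 arrays, Cd40lg on 4 and Foxp3 on 0. The share of probes well above background was 58.9% to 63.8% per array. The TGC3 arrays shared 1 slide and 1 scan run, and the TG arrays shared another slide and run. Genotype, slide and scan run therefore cannot be told apart in any difference below.

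When a cell enters mitosis its copied chromosomes have to be untangled and folded into compact rods. Condensins are ring-shaped ATPases that extrude loops of DNA. Smc2 and Smc4 form the ATPase core of both condensin complexes, which differ in the other subunits: condensin I has Ncapd2, Ncapg and the ring-closing kleisin Ncaph, and condensin II has Ncapd3, Ncapg2 and the kleisin Ncaph2. Topoisomerase II alpha passes one DNA duplex through another and so removes the links between sister chromatids. Ki-67, a widely used histological marker of dividing cells, coats mitotic chromosomes and keeps them from sticking together. In human cells condensin II is in the nucleus throughout interphase, whereas condensin I gains access to the chromosomes once the nuclear envelope breaks down. In mice, a point mutation of Ncaph2 is known to reduce T cell numbers.

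Of the 10 genes, 7 were higher in TGC3 cells than in TG cells and 1 was lower, where 16.6% of all 16389 genes tested were higher, 9.45% lower and 26.0% either. Top2a (2.94-fold), the 3 condensin I subunits (1.59- to 2.27-fold), Ncapg2 of condensin II (2.21-fold), Mki67 (2.09-fold) and the shared subunit Smc2 (1.82-fold) rose. Ncaph2 fell by a small amount (0.835-fold), a call that held under 7 of the 19 alternatives described below. Smc4 and Ncapd3 did not pass the test. In bulk RNA, a larger share of cells in division and more of these transcripts per dividing cell cannot be told apart. Changes below are TGC3 minus TG ± SE from limma with p adjusted over all 16389 genes.

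**Figure D1:**
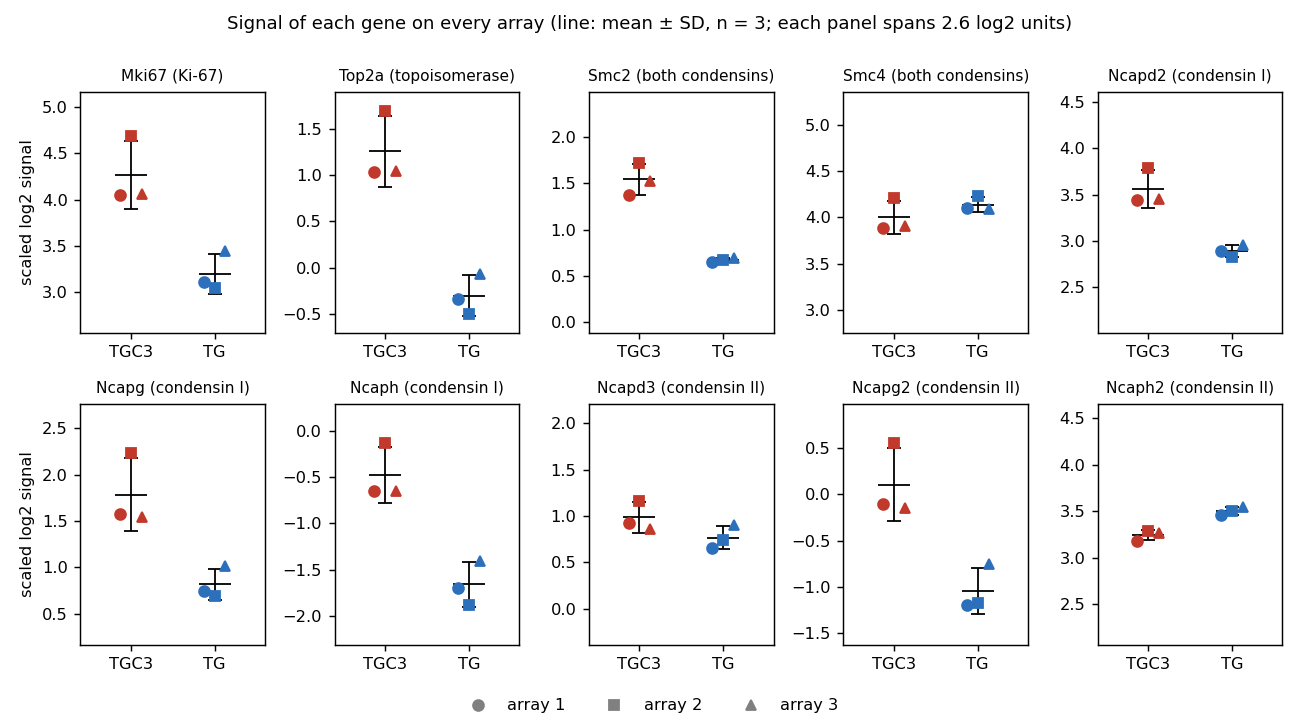
Scaled log2 signal (y axis, 0 = 75th percentile of the array) of the 10 genes on the 3 TGC3 arrays (red, left) and the 3 TG arrays (blue, right), with the mean ± SD (n = 3). In 7 panels every TGC3 point lies above every TG point, in Ncaph2 every one lies below, and in Smc4 and Ncapd3 the groups overlap.

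Because several of these genes moved together, the promoters of 6 of them are shown: Mki67 and Top2a, the condensin I genes Ncapd2, Ncapg and Ncaph, and Ncaph2 as the gene that moved the other way. Each run is the 250 bases before the transcription start (GRCm38.p6, RefSeq), 5′ to 3′ on the strand of the gene. Capitals mark matches on either strand to the CHR element TTTGAA, bound by the MuvB complexes that time late cell cycle genes, and to the CCAAT box, bound by NF-Y.
Mki67 (chr7:135716380-135716629, minus strand): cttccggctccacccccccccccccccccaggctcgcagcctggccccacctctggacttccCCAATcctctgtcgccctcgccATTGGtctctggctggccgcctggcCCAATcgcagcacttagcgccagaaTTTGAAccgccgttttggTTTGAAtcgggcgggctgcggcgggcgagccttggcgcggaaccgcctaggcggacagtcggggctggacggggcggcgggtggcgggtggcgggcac
Top2a (chr11:99024190-99024439, minus strand): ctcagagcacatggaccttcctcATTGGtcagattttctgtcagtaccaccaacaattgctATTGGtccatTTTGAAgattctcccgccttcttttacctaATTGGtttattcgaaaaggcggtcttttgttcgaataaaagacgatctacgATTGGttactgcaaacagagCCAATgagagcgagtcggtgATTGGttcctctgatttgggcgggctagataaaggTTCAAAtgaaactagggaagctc
Ncapd2 (chr6:125191587-125191836, minus strand): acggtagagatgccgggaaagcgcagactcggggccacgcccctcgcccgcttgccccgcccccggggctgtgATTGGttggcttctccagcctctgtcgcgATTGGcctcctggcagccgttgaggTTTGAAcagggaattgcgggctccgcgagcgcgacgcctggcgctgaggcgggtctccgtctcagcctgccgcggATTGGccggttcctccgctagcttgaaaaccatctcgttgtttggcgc
Ncapg (chr5:45669675-45669924, plus strand): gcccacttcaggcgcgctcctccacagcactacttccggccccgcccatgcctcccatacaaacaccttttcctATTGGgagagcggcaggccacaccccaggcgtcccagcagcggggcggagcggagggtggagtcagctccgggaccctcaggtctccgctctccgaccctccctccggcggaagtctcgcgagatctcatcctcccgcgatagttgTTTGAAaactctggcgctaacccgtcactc
Ncaph (chr2:127133955-127134204, minus strand): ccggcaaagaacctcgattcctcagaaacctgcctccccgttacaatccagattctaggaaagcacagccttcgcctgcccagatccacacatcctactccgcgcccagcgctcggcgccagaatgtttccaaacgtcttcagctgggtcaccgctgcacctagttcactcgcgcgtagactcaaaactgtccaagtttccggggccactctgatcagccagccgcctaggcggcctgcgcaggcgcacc
Ncaph2 (chr15:89355469-89355718, plus strand): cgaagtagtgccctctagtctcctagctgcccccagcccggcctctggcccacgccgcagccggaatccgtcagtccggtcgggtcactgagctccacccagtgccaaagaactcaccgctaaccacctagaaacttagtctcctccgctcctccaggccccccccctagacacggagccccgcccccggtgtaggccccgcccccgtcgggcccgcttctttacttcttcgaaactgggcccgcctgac

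RefSeq promoters (250 bases before and 50 after the start) were found for 9 of the 10 genes, not for Smc4, and Ncapd3 had a second one. Of the 7 genes that rose, 6 had a CHR match: 2 in each of Mki67, Top2a and Smc2 and 1 in each of Ncapd2, Ncapg and Ncapg2. Among all 32851 promoters of this length, 17.9% had one. The CCAAT letters were present in 5 of the 7, with 6 matches in Top2a, 3 each in Mki67 and Ncapd2 and 1 each in Smc2 and Ncapg, against 37.4% of all promoters. An E2F core, searched as GCGGGAA or GCGCGAA, was found in Ncapg and Ncapg2, against 6.00% of all promoters. Neither Ncaph, which rose, nor Ncaph2, which fell, held any of these letters in its window. Of the 2 promoters of Ncapd3, which did not pass, 1 held a CHR match and the other held none of these letters. No matches overlapped in these promoters, and a match describes the sequence only.

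Mki67 was read at chromosome 7, 142881591 to 142881650, minus strand (mm9, transcript NM_001081117). The processed signal in intensity units was 9847 on TGC3 1, 15711 on TGC3 2 and 10362 on TGC3 3, against 4853 on TG 1, 4715 on TG 2 and 6726 on TG 3. In scaled log2 values these were 4.05, 4.69 and 4.06 in TGC3 cells and 3.11, 3.04 and 3.44 in TG cells. TGC3 2 was the highest array and TG 3 the highest of its group, and the groups did not overlap. The change was 1.07 ± 0.20 (limma adjusted p = 0.0149). A dimmer probe of the same transcript changed by 1.00 ± 0.20 (limma adjusted p = 0.0180 over all 25103 kept probes).

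Top2a, the enzyme that unlinks sister chromatids, had the largest change of the 10 genes. Its probe (NM_011623) has 60 bases and spans 815 bases of chromosome 11 (98857244 to 98858058, minus strand, mm9). The scaled log2 values were 1.03, 1.69 and 1.04 in TGC3 cells, against -0.34, -0.50 and -0.07 in TG cells. All TGC3 arrays lay above all TG arrays, with TGC3 2 again the highest. The change was 1.56 ± 0.21 (limma adjusted p = 0.00564), and 1.39 ± 0.22 with the second probe of this transcript (adjusted p = 0.00968 over the kept probes). Another probe, designed to the clone AK082477, was not well above background on any array.

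Of the ATPase pair common to both condensins, Smc2 rose and Smc4 did not pass; the difference between them was not tested. Smc2 (NM_008017, chromosome 4, 52464211 to 52470154, plus strand, mm9) had scaled log2 values of 1.38, 1.72 and 1.53 in TGC3 cells, against 0.66, 0.67 and 0.70 in TG cells. The TG arrays lay close together, and all TGC3 arrays lay at least 0.68 above them. Smc2 rose by 0.87 ± 0.10 (limma adjusted p = 0.00343). A pair of further probes of the transcript rose alike (0.92 ± 0.15 and 0.96 ± 0.09), and the dimmest of its 4 probes changed by 0.47 ± 0.14 without passing (limma adjusted p = 0.0552).

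Smc4 (NM_133786, chromosome 3, 68838453 to 68838512, plus strand, mm9), the partner of Smc2 in the ring, had scaled log2 values of 3.88, 4.21 and 3.91 in TGC3 cells, against 4.10, 4.23 and 4.09 in TG cells. TGC3 2 lay among the TG arrays, and the groups overlapped. The change of -0.14 ± 0.11 did not pass (limma adjusted p = 0.375), nor did that of its second probe (0.07 ± 0.08, limma adjusted p = 0.532). With each array centred on its median, which moves the median change of all genes to -0.18, the change of Smc4 was -0.31 and passed (limma adjusted p = 0.0432).

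All 3 subunits found in condensin I alone rose. Ncaph, the kleisin that closes the ring (NM_144818, chromosome 2, 126934282 to 126934341, minus strand, mm9), had scaled log2 values of -0.66, -0.13 and -0.65 in TGC3 cells, against -1.70, -1.88 and -1.40 in TG cells. Its groups were 0.75 apart at their nearest arrays, and it rose by 1.18 ± 0.19 (limma adjusted p = 0.00874).

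Ncapg, a HEAT repeat subunit (NM_019438, chromosome 5, 46091297 to 46091355, plus strand, mm9), had scaled log2 values of 1.57, 2.24 and 1.54 in TGC3 cells, against 0.74, 0.69 and 1.01 in TG cells. TGC3 2 was the highest array, and the groups did not overlap. Ncapg rose by 0.97 ± 0.21 (limma adjusted p = 0.0210), and by 1.42 ± 0.24 with its dimmer probe (limma adjusted p = 0.0106).

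Ncapd2, the other HEAT repeat subunit (NM_146171, chromosome 6, 125118012 to 125118066, minus strand, mm9), had scaled log2 values of 3.44, 3.79 and 3.45 in TGC3 cells, against 2.89, 2.83 and 2.96 in TG cells. Its groups were 0.48 apart, the narrowest gap among the genes that rose. The change was 0.67 ± 0.11 (limma adjusted p = 0.0101) and 0.63 ± 0.09 with a second probe of the transcript. A probe designed to the clone AK013380 changed by 0.25 ± 0.13 and did not pass (limma adjusted p = 0.195).

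Of the 3 subunits found in condensin II alone, 1 was higher, 1 was lower and 1 did not pass; differences between them were not tested. Ncapg2, its counterpart of Ncapg (NM_133762, chromosome 12, 117701714 to 117701773, plus strand, mm9), had scaled log2 values of -0.10, 0.56 and -0.14 in TGC3 cells, against -1.20, -1.17 and -0.75 in TG cells. TGC3 2 and TG 3 were the highest of their groups and the groups did not overlap. Ncapg2 rose by 1.14 ± 0.22 (limma adjusted p = 0.0162).

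Ncapd3, the counterpart of Ncapd2 (NM_178113, chromosome 9, 26902668 to 26902727, plus strand, mm9), had scaled log2 values of 0.93, 1.17 and 0.86 in TGC3 cells, against 0.66, 0.74 and 0.91 in TG cells. TG 3 lay above TGC3 3, so that the groups overlapped. The change of 0.22 ± 0.11 did not pass (limma adjusted p = 0.193), nor did the 0.48 ± 0.23 of a dim clone probe (limma adjusted p = 0.182).

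Ncaph2, the kleisin of condensin II (NM_001271601, chromosome 15, 89203184 to 89203243, plus strand, mm9), had scaled log2 values of 3.18, 3.29 and 3.26 in TGC3 cells, against 3.46, 3.50 and 3.55 in TG cells. All TGC3 arrays lay below all TG arrays, and the change was -0.26 ± 0.06 (limma adjusted p = 0.0287), a fold of 0.835. The second probe (NM_001115132, 89190847 to 89193879) did not pass and pointed the other way (0.08 ± 0.06, limma adjusted p = 0.417). The call was lost after quantile normalization (limma adjusted p = 0.0571), with the mean of both probes (0.267) and without any 1 array other than TGC3 2 (0.0667 to 0.0949), and the change was 0.092 with normexp correction that kept the aberrant backgrounds of TG 3.

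Probe by probe, 13 of the 21 kept probes were higher, 1 was lower and 7 did not pass, with p adjusted over all 25103 kept probes by limma, of which 13.7% were higher and 8.37% lower.

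**Figure D2:**
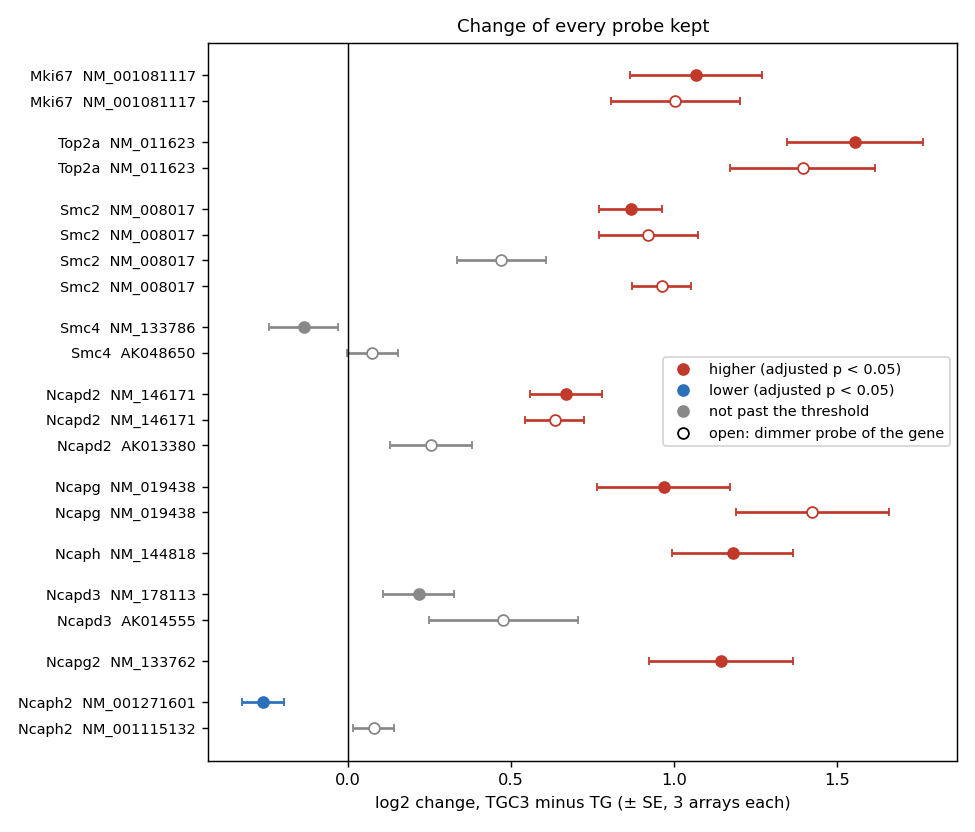
Log2 change, TGC3 minus TG (x axis, ± SE from limma, 3 arrays each), of the 21 kept probes with the accession each was designed to; filled points are the probe used for the gene, and colours give the call. Probes of Mki67, Top2a and Ncapg lie to the right of 0 throughout, while the probes of Smc4 and of Ncaph2 lie on both sides of it.

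Of the 10 genes, 7 had groups that did not overlap with TGC3 higher, and 1 with TGC3 lower. These were the genes that passed. Over all genes, passed or not, 24.3% were separate and higher, 22.4% separate and lower and 46.7% either. The median change of the 10 genes was 0.92, a fold of 1.89, beside -0.01 over all genes. At least 2-fold rises that passed were found for 4 of the 10 genes and for 3.12% of all genes. Over all genes, 2720 were higher and 1548 lower, which became 1801 and 4766 with each array centred on its median and 2040 and 1869 with normexp correction after setting the 7 aberrant background readings of TG 3 to that array's median background.

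The number of the 10 genes called rested on single TG arrays. Without TG 1, and likewise without TG 2, 4 genes were higher and 0 lower by limma (7 higher and 1 lower at an unadjusted p under 0.05). Mki67, Ncapg and Ncapg2 then did not pass (limma adjusted p = 0.0512 and 0.0525 for Mki67, 0.0660 and 0.0687 for Ncapg, 0.0543 and 0.0560 for Ncapg2), with changes of 0.91 to 1.08. Over all genes 2486 were called without TG 1 and 2359 without TG 2, against 4268 with all arrays. Top2a, Smc2, Ncapd2 and Ncaph passed in all 6 fits that left out 1 array.

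**Figure D3:**
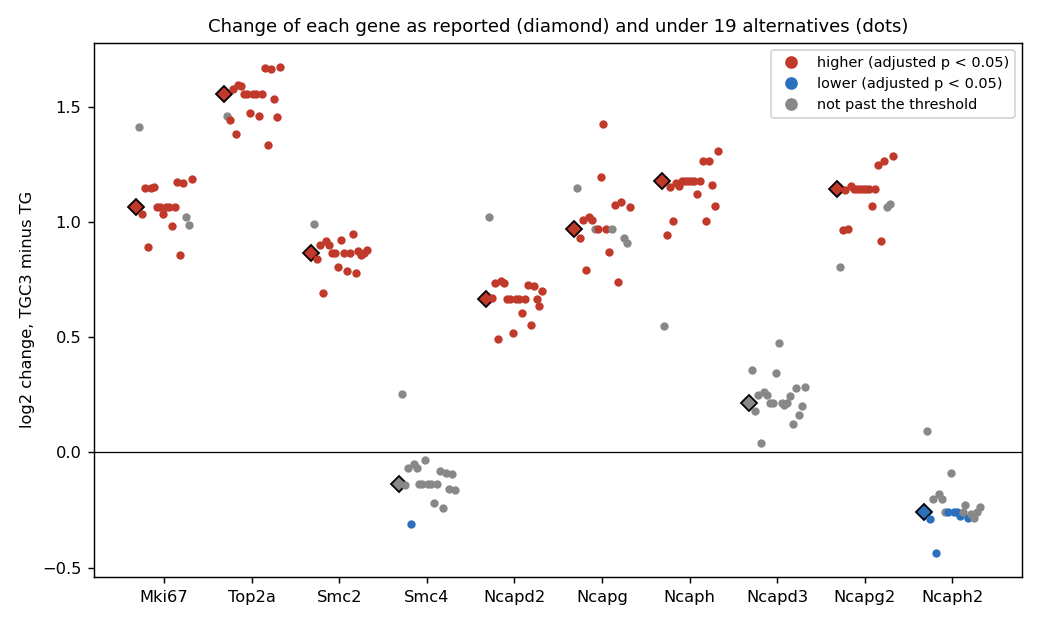
Log2 change, TGC3 minus TG (y axis), of the 10 genes as reported (diamond) and under 19 alternatives (dots), coloured by the limma call. Top2a, Smc2, Ncapd2 and Ncaph passed under 18 of them, Mki67 and Ncapg2 under 16, Ncapg under 14, Ncaph2 under 7, Smc4 under 1 and Ncapd3 under 0.

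The genes also varied together within each group. TGC3 2 was the highest of all 6 arrays for all 7 genes that rose, by 0.27 to 0.68 above the mean of TGC3 1 and TGC3 3, where the median over all genes was 0.03. TG 3 was the highest TG array for the same 7 genes, by 0.03 to 0.43 over the mean of TG 1 and TG 2, where the median over all genes was 0.02. This order was not particular to the genes that rose. TGC3 2 was the highest TGC3 array for all 10 genes, and TG 3 the highest TG array for 9. Smc4 and Ncapd3, which did not pass, lay 0.31 and 0.27 higher on TGC3 2 than the mean of TGC3 1 and TGC3 3. Without TGC3 2 the 7 genes still rose, by 0.55 to 1.34, and 1 was lower.

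**Figure D4:**
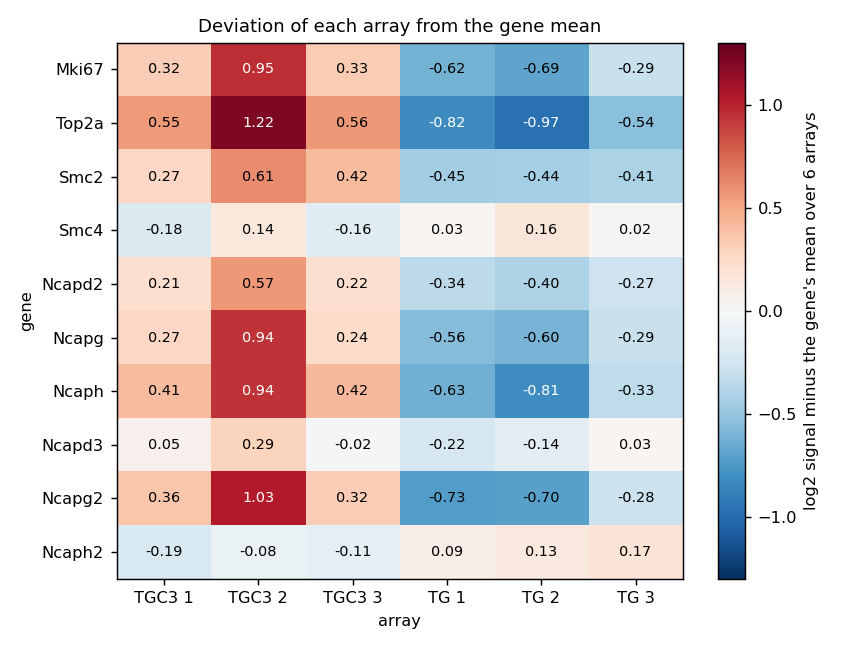
Scaled log2 signal of each gene (rows) on each array (columns) minus the mean of that gene over the 6 arrays, printed in the cells. The TGC3 2 column is the highest for the 7 genes that rose, with 0.57 in Ncapd2 and 1.22 in Top2a, and for Ncapd3 (0.29). The rows of Smc4, Ncapd3 and Ncaph2 reach at most 0.29 in size.

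Markers of other cells moved with the groups on the same arrays, on which 16.6% of all genes were higher and 9.45% lower. For neutrophils, 12 of 13 listed genes were on the array and 5 were tested, with 2 higher and 1 lower. Their summed signal, in multiples of an array's 75th percentile, was 1.74, 8.30 and 3.21 on TGC3 1 to TGC3 3, against 0.511, 0.481 and 0.455 on TG 1 to TG 3. S100a8 and S100a9 made up most of it on the TGC3 arrays, and S100a8 lay above background on 0 TG arrays. The lower gene was Mmp9 (-2.31 ± 0.16, limma adjusted p = 0.00122), and Mpo and Retnlg did not pass. Elane, Mmp8, Csf3r and Cxcr2 were well above background on 0 arrays. TGC3 2 had the highest neutrophil sum and was the highest array for the 7 genes above. The sums of the TG arrays lay close together. That of TG 3, the highest TG array for the 7 genes, was the lowest. Gene by gene, S100a8 read lowest on TG 1, S100a9 and Retnlg on TG 2, and Mpo and Mmp9 on TG 3. S100a9 and Retnlg lay well above background on 1 TG array each. Whether neutrophils had a part in the changes was not tested.

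The summed signals of endothelial (0.803 to 0.886 in TGC3, 0.662 to 0.756 in TG) and cholangiocyte markers (0.360 to 0.362 in TGC3, 0.292 to 0.327 in TG) were also higher in TGC3. Of the listed genes, 4 of 8 and 3 of 7 were tested, of which 2 and 2 were higher by limma, beside 16.6% of all genes. Pecam1 (-0.01 ± 0.09, limma adjusted p = 0.938), Stab1 and Epcam did not pass. Cdh5, Kdr, Lyve1, Oit3, Krt19, Krt7, Sox9 and Cftr were well above background on 0 arrays. All marker sums include such dim probes. With no filter on dim probes the median change of all genes was 0.13, beside -0.01 with the filter. The summed signal of CD8 T cell markers was lower, at 710 to 778 in TGC3 cells and 793 to 886 in TG cells. Of these markers 3 of 8 were lower, beside 9.45% of all genes. Of 3 tested erythroid markers Slc4a1 was higher (0.98 ± 0.20, limma adjusted p = 0.0174) and read highest on TGC3 3 (-2.85, against -3.53 on TGC3 2). Hba-a1 and Epor, which did not pass, read highest on TGC3 2.

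The sums of 9 of the 14 marker lists overlapped between the groups, but single markers in them differed. Of 5 tested B cell markers 3 were higher and 1 lower. Of 3 plasma cell markers 1 was higher, and of 8 macrophage and monocyte markers 3 were higher. Over all genes, 16.6% were higher and 9.45% lower. The lower B cell marker was Cd22 (-0.92 ± 0.22, limma adjusted p = 0.0294), and Cd79b did not pass (-0.03 ± 0.11, adjusted p = 0.844). Xbp1 and Prdm1 of the plasma cell list did not pass, nor did Csf1r, Cd14, Cd68, Cd5l and Ly6c2 of the macrophage and monocyte list. The following 3 were chosen after their values were seen. Ms4a1, a B cell surface protein, had scaled log2 values of -4.30, -2.60 and -4.14 in TGC3 cells (limma adjusted p = 0.00314) and lay well above background on 0 TG arrays. Jchain, the joining chain of secreted antibodies, had -2.95, -2.23 and -3.68 in TGC3 cells, against -5.78, -5.66 and -5.23 in TG cells (limma adjusted p = 0.00624), where 1 of 3 arrays had it well above background. Lyz2, a lysozyme of myeloid cells, had -1.62, 1.16 and -0.82 in TGC3 cells, against -2.64, -4.56 and -3.75 in TG cells (limma adjusted p = 0.0334). All 3 were highest on TGC3 2, like the 7 genes above. The part of these other cells in the changes was not tested.

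Genes that work with condensins, topoisomerase II and Ki-67 were read from 3 lists. Of all genes tested, 16.6% were higher and 9.45% lower. Of 20 partners and regulators, 8 were higher and 0 lower by limma (1 lower at an unadjusted p under 0.05), with a median change of 0.07. The largest rises were those of the mitotic kinases Plk1 (2.04 ± 0.20, limma adjusted p = 0.00276), Aurkb (1.89 ± 0.21, adjusted p = 0.00344) and Cdk1 (1.82 ± 0.20, adjusted p = 0.00328), of which Cdk1 and Aurkb are known to phosphorylate condensin I, and that of Birc5, the survivin subunit of the Aurora B complex (1.42 ± 0.23, adjusted p = 0.00944). The part of other cells in the changes of this list was not tested either.

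Cohesin is the ring that holds sister chromatids together. Of 18 genes of cohesin and its regulators, 5 were higher and 1 lower, with a median change of 0.04. Over all genes, 16.6% were higher and 9.45% lower. Sgo2a (1.72 ± 0.18, limma adjusted p = 0.00305) and Sgo1 (1.55 ± 0.19, limma adjusted p = 0.00444), the shugoshins that shield centromeric cohesin, rose. So did Espl1, the separase that cuts the ring at anaphase (1.66 ± 0.17, limma adjusted p = 0.00290), and Esco2, an acetyltransferase that fixes cohesion in S phase (1.61 ± 0.34, limma adjusted p = 0.0199). Mau2, a subunit of the cohesin loader, fell (-0.23 ± 0.06, limma adjusted p = 0.0446), but 0 genes of the list were lower in each fit that left out 1 array (1 or 2 at an unadjusted p under 0.05). The number higher was 3 without TG 1 or TG 2.

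The SMC5/6 complex, a further SMC ring, used in DNA repair, had a median change of -0.06. It had 1 of 9 genes higher and 1 lower, beside 16.6% and 9.45% of all genes. Smc5, a subunit of its core, fell (-0.31 ± 0.06, limma adjusted p = 0.0163), and Eid3, a paralogue of its kleisin, rose (0.35 ± 0.08, limma adjusted p = 0.0268). By limma 0 genes were called without TGC3 1, TGC3 3 or TG 2, where 1 was higher and 1 or 2 lower at an unadjusted p under 0.05. After quantile normalization 0 were higher (2 at an unadjusted p under 0.05) and 1 lower. With each array centred on its median, which takes the median change of all genes to -0.18, the medians of the partner, cohesin and SMC5/6 lists were -0.11, -0.13 and -0.24, with 7, 5 and 0 genes higher and 4, 5 and 3 lower.

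**Figure D5:**
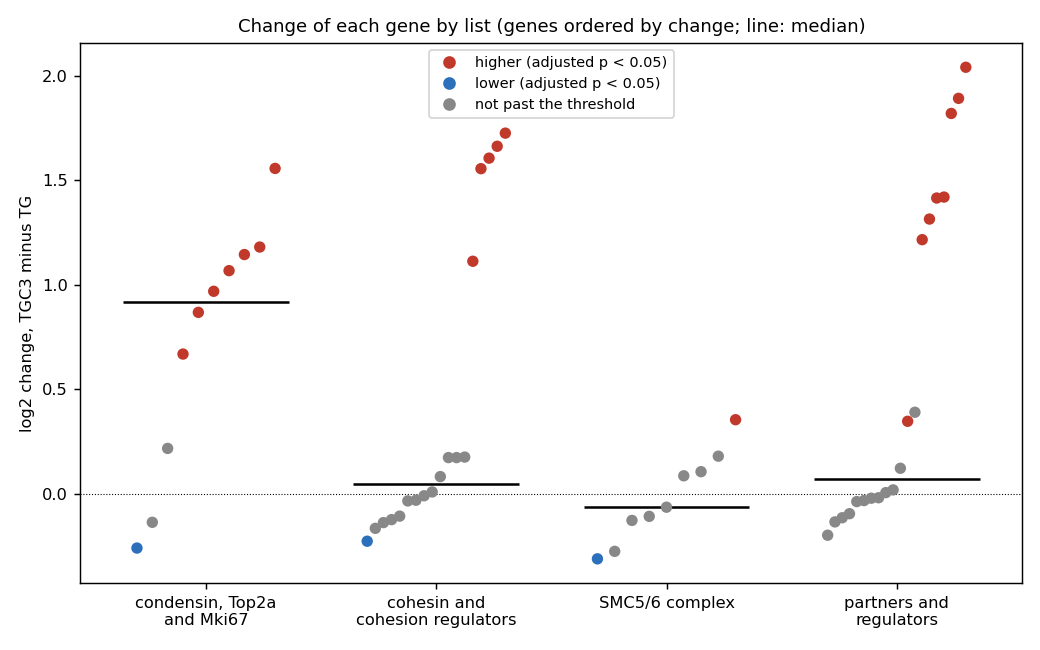
Log2 change, TGC3 minus TG (y axis), of each gene of the 4 lists, ordered by change within a list, with the list's median as a line and the limma call as colour. Medians are 0.92, 0.04, -0.06 and 0.07 from left to right, and rises of more than 1 are seen in 3 of the 4 lists and not in SMC5/6.

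The genes most like Mki67 over the 6 arrays were ranked by the root mean square difference between values centred on each gene's own mean. Among genes outside the 10, the nearest were Cenpk, a centromere protein (0.0587), Eme1, a subunit of a structure-specific DNA nuclease (0.0637), Cks1b, a CDK-binding protein (0.0689), Mybl2, the B-MYB transcription factor (0.0701), and E2f7, a repressor of the E2F family (0.0722). They changed by 1.02, 1.14, 1.00, 1.07 and 1.12, beside 1.07 for Mki67, and like it read highest on TGC3 2. They were picked for this likeness, which is a description of 6 arrays.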

How the data were processed

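Gene expression in liver CD8+ T cells of 3 TGC3 and 3 TG samples was read on 1-colour Agilent arrays of 45018 spots. Feature Extraction 10.7.3.1, per the file headers (10.7.1.1 per the submitters' processing notes), quantified the scans. Its processed signal is an intensity from which background was subtracted and spatial trends were removed, per the file headers. The deposited normalized values are log2, share their quantiles between columns and served as an alternative.

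Spots of a probe were averaged as log2 values, and 11 probes with outlier spots were left out. Each array's 75th percentile was subtracted. A probe was kept if 3 or more of the 6 arrays had it well above background (25103 probes), names were updated from RefSeq (GRCm38.p6), and the brightest kept probe stood for its gene. TGC3 was compared with TG by limma 3.58.1 (R 4.3.3, statmod 1.5.0), as a two-sided test. Genes were called at p under 0.05 after Benjamini-Hochberg adjustment across the genes tested. A separate fit over all kept probes gave the values of second probes. Other steps used Python 3.11.15, numpy 2.4.6, pandas 2.3.3 and matplotlib 3.10.9. The procedure was tested on simulated data. The number of arrays limits the precision. Alternatives were other background corrections, normalizations, filters, probe choices and variance models, the replicate number as a block, and each array left out.

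The genes and lists were chosen with earlier results of these data known. The text names all 10 genes, the 4 (or fewer) most changed genes that passed in each list, genes that passed in the rarer direction of a list, and the 5 genes nearest to Mki67. Other genes outside this rule are said to be so. The summed signal of 1 marker list is not reported here. Replicate numbers were not treated as pairs in the main fit. Deviations of same-numbered arrays from their group means correlated across genes at -0.0031, -0.0768 and -0.0990. These values show no shared pattern but cannot settle whether same-numbered samples were prepared together.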

Additional observations from a re-analysis of the deposited data

How the results depend on the processing

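Of the 10 genes 8 were called by limma, and of all genes 4268. With normexp background correction (offset 50), in which 7 aberrant spot backgrounds of TG 3 entered, 0 of the 10 were called (5 higher and 0 lower at an unadjusted p under 0.05) and 1 gene of all; the 7 rises kept their direction at an adjusted p of 0.722, and Smc4 (0.25, adjusted p = 0.756) and Ncaph2 (0.092, adjusted p = 0.892) turned. With those backgrounds replaced, 8 of the 10 were called. All genes called numbered 6567 with each array centred on its median, 2670 with no filter on dim probes and 2349 with the replicate number as a block. The block left 6 of the 10 called, all higher, and the replicate numbers are not known to pair the samples. The cause of these moves was not tested. Leaving out 1 array at a time gave 4 to 8 of the 10 genes and 2359 to 3861 of all genes, with 2720 without TGC3 1 and 2777 without TGC3 3. Ncapg was lost with no filter (adjusted p = 0.0519) and with the block (0.0577). The median change of the 10 stayed between 0.74 and 1.01 under all 19 alternatives. The Top2a probe that was above background on 0 arrays gives no change, and the 3 arrays a group limit the precision of all values.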

Other observations

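Close relatives of these genes that are not tied to mitosis alone were read on the same arrays and are named here after their values were seen. Top2b, the other topoisomerase II, had scaled log2 values of 4.63, 4.68 and 4.63 in TGC3 cells, against 4.70, 4.77 and 4.76 in TG cells. Its change of -0.10 ± 0.06 did not pass (limma adjusted p = 0.257), beside 1.56 ± 0.21 for Top2a. The difference between these changes was not tested. The cohesin core genes Smc1a (-0.11 ± 0.09, limma adjusted p = 0.392), Smc3 (-0.12 ± 0.07, adjusted p = 0.218) and Rad21 (0.08 ± 0.08, adjusted p = 0.503) did not pass either, nor did Smc6 of the SMC5/6 core (-0.13 ± 0.08, adjusted p = 0.257). Smc5, its partner in that core, was lower (-0.31 ± 0.06, limma adjusted p = 0.0163). For Top2b, Smc3, Smc5 and Smc6 all TGC3 arrays lay below all TG arrays, as for 22.4% of all genes. The groups overlapped for Smc1a and Rad21.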
